A study of Saccharomyces cerevisiae with 14 samples.

Results

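The comparison described here set 1 ARV1 mutant strain of Saccharomyces cerevisiae, isolate SCY840, against 1 control strain, SCY2004, on the S98 array, a single Affymetrix chip for the yeast genome. Its 2 arrays, called mutant 3 and control 3 after the labels, are 2 of the 14 in the series. The other 12 are the chips of the older Ye6100 format, on which each RNA sample takes a set of 4, so the series holds 5 RNA samples in all. Both strains are MATa isolates of the W303 background, grown to mid-logarithmic phase in YEPD, a rich glucose medium. Both RNAs were total RNA passed over oligo(dT) to enrich polyadenylated RNA, and were hybridised as biotin-labelled cRNA. The genotypes are given as ARV1 mutant and control, with no allele or marker, so what is left of the ARV1 gene in SCY840 was not known here. All 9335 probe sets of the chip were used, with or without a counterpart on Ye6100. With 1 RNA sample on 1 array for each strain no difference had a replicate check or a test, and genotype, isolate, culture and hybridisation cannot be told apart. Ratios are therefore given as descriptions of these 2 arrays. The S98 ratios resembled those of another ARV1 mutant isolate, SCY820, on Ye6100 more than those of SCY840 there, as set out last.

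The product of ARV1 spans the membrane of the endoplasmic reticulum (ER), where it has roles in moving sterols between organelles and in the synthesis of glycosylphosphatidylinositol (GPI) anchors, the lipid tails that hold many yeast proteins at the plasma membrane and cell wall. When unfolded proteins build up in the yeast ER, the sensor Ire1 splices the mRNA of the transcription factor Hac1, which raises the transcription of chaperone, oxidation and degradation genes (the unfolded protein response). Damage to the wall is signalled separately, through the Pkc1 and Slt2 kinases, to genes of wall polymers and wall proteins.

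ARV1 itself had a scaled signal of 51.8 in control 3 and 6.79 in mutant 3, a log2 ratio of -2.93. The mutant value was thus near the bottom of the scale and the control value was low as well. The genes on either side of ARV1 on chromosome XII differed in opposite directions. GPN3, which encodes a GTPase needed for assembly of RNA polymerase II, had 1403 in control 3 and 604 in mutant 3, a log2 ratio of -1.21. CSC1, which encodes a calcium-permeable channel, had 136 in control 3 and 366 in mutant 3, a log2 ratio of 1.43. Where these probes lie relative to the change at ARV1 was not known here.

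The deposited column of control 3 was the brighter, with a 2% trimmed mean of 500.3 against 250.1, and both columns were brought to a common value before any ratio was taken. Signals below the fifth percentile, 1.98 scaled units, were raised to it. The 6967 probe sets whose mean scaled signal was over 28.1 were compared. Of these, 684 were at least 2-fold higher in mutant 3 (9.82%) and 212 were at least 2-fold lower (3.04%). A gene was represented by its brightest probe set that the annotation ties to that gene alone. This gave 5227 genes, of which 508 were at least 2-fold higher (9.72%) and 106 at least 2-fold lower (2.03%), and these shares are the background for the counts of gene groups. At 4-fold, 61 genes were higher and 12 lower.

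Over these genes the log2 ratio had a median of 0.12 and an interquartile range from -0.25 to 0.54. The excess of higher over lower genes depended on the scaling: with the columns centred on their medians, which moves all ratios by -0.25, 286 genes were higher and 256 lower. The ratio also followed the signal. Its median was between 0.08 and 0.25 in the 6 dimmest of 10 equal groups of probe sets, and it was -0.22 in the brightest group. Control 3 reached a scaled signal of 5191 at its brightest probe set, and mutant 3 reached 4241. Gene groups are therefore set beside the median of all genes, and a group whose side of that median depends on the scaling is named as such. The 9 probe sets of the spiked hybridisation controls BioB, BioC, BioDn and CreX had a median log2 ratio of -0.12, from -0.29 to 0.11. The signal ratio of 5′ to 3′ probe sets, a sign of RNA integrity, was 1.15 in control 3 and 1.17 in mutant 3 for ACT1, but 0.518 and 0.296 for SPT15 and 0.403 and 0.274 for MED17. It was thus lower in mutant 3 for 2 of 3 genes, and its part in the ratios was not tested. The plot of ratio against signal shows where the named genes lie.

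**Figure D1:**
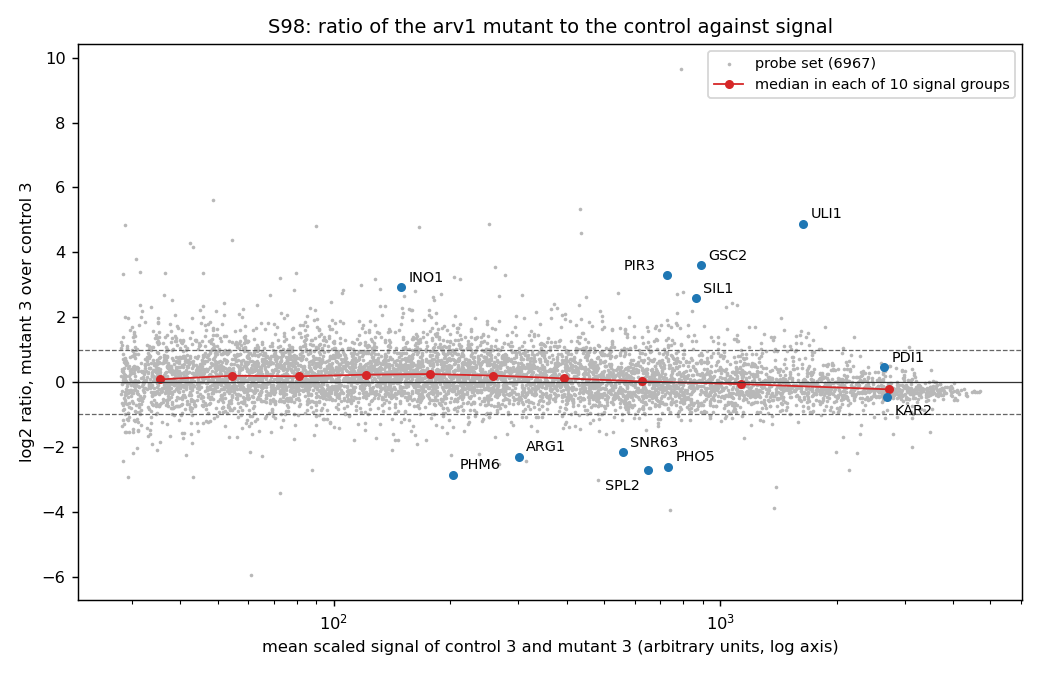
Log2 ratio of mutant 3 to control 3 (vertical axis) against the mean scaled signal of both arrays in arbitrary units (horizontal log axis) for the 6967 probe sets compared. Grey points are probe sets, the red line joins the medians of 10 equal signal groups, dashed lines mark 2-fold, and blue points are named genes; the median falls to -0.22 in the brightest group, where KAR2 and PDI1 lie.

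The 20 highest and 20 lowest genes are described among those whose mean signal on both arrays was over 112.9, the median of the probe sets, and that were not listed at 0. Some dimmer genes, such as ECI1 (-2.92), a peroxisomal gene of fatty acid breakdown, had ratios as far from 0. ULI1, which encodes an ER membrane protein induced by unfolded proteins, had a scaled signal of 108 in control 3 and 3172 in mutant 3, a log2 ratio of 4.88. GSC2, which encodes the inducible catalytic subunit of β-glucan synthase, had 135 in control 3 and 1645 in mutant 3, a log2 ratio of 3.60. PIR3, which encodes a protein covalently bound to the wall, had 135 in control 3 and 1319 in mutant 3, a log2 ratio of 3.29. These 3 genes had moderate signals in control 3 and bright ones in mutant 3. SIL1, which encodes the nucleotide exchange factor of the ER chaperone Kar2, had 246 in control 3 and 1482 in mutant 3, a log2 ratio of 2.59. GFA1, which encodes the enzyme of the first step towards chitin precursors, had 336 in control 3 and 1803 in mutant 3, a log2 ratio of 2.42. YNR065C, a gene of no known function, had 359 in control 3 and 1848 in mutant 3, a log2 ratio of 2.36. The control signals of SIL1, GFA1 and YNR065C were over 112.9 by themselves, so their ratios do not rest on dim values. RTA1, which encodes a membrane protein linked to sterol-analogue resistance, had 141 in control 3 and 949 in mutant 3, a log2 ratio of 2.75. YIL108W, a putative metallopeptidase gene, had 204 in control 3 and 1339 in mutant 3, a log2 ratio of 2.72. PMT3, which encodes a protein O-mannosyltransferase, had 118 in control 3 and 626 in mutant 3, a log2 ratio of 2.41. PCA1, which encodes a cadmium-exporting ATPase, had 139.7 in control 3 and 722 in mutant 3, a log2 ratio of 2.37. YDL057W, of unknown function, had 125 in control 3 and 771 in mutant 3, a log2 ratio of 2.62.

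The others of the 20 highest genes were dimmer in control 3, all under 112.9, as was ULI1. INO1, which encodes the first enzyme of inositol synthesis, had 34.9 in control 3 and 263 in mutant 3, a log2 ratio of 2.92. THI21, a kinase gene of thiamine synthesis, had 39.1 in control 3 and 369 in mutant 3, a log2 ratio of 3.24. SHH3, a relative of a succinate dehydrogenase subunit gene, had 41.8 in control 3 and 381 in mutant 3, a log2 ratio of 3.19. DAN4, which encodes a wall mannoprotein of anaerobic cells, had 40.6 in control 3 and 283 in mutant 3, a log2 ratio of 2.80. In all 4 the control signal was under 50 units, so the size of the ratio leans on a weak reading. GPT2, an acyltransferase gene of the first step of glycerolipid synthesis, had 73.5 in control 3 and 460.1 in mutant 3, a log2 ratio of 2.65. ROY1, which encodes an inhibitor of the endosomal GTPase Ypt52, had 26.4 in control 3 and 209 in mutant 3, a log2 ratio of 2.99. ATG17, a scaffold gene of autophagy, had 50.6 in control 3 and 309.6 in mutant 3, a log2 ratio of 2.61. The last of the 20, BPH1, which encodes a BEACH-domain protein, is uncertain, since its 5 probe sets ran from -1.02 to 2.85 with a mean of 0.91. RPP0, a ribosomal stalk gene also among them, is taken up with other ribosomal protein probe sets further on.

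The first 3 of the 20 lowest genes above the median signal are genes known to respond to phosphate starvation. PHM6, a gene of unknown function controlled by the phosphate regulator Pho4, had 357 in control 3 and 49.4 in mutant 3, a log2 ratio of -2.85. SPL2, which encodes an inhibitor of low-affinity phosphate uptake, had 1129 in control 3 and 173 in mutant 3, a log2 ratio of -2.71. PHO5, which encodes the repressible secreted acid phosphatase, had 1258 in control 3 and 206 in mutant 3, a log2 ratio of -2.61. All 3 were clear signals in control 3 and were between 6.10 and 7.22 times lower in mutant 3. ARG1, which encodes argininosuccinate synthase, had 501 in control 3 and 102 in mutant 3, a log2 ratio of -2.30. HNM1, the choline transporter gene, had 788 in control 3 and 269 in mutant 3, a log2 ratio of -1.55. FAR1, which encodes the inhibitor that arrests the cell cycle in response to pheromone, had 568 in control 3 and 213 in mutant 3, a log2 ratio of -1.42. None of these 3 belongs to the phosphate group. SIR2, which encodes the histone deacetylase of silent chromatin, had 223 in control 3 and 65.1 in mutant 3, a log2 ratio of -1.78. MAF1, which encodes the repressor of RNA polymerase III, had 214 in control 3 and 70.9 in mutant 3, a log2 ratio of -1.59. MRS3, which encodes a mitochondrial iron carrier, had 227 in control 3 and 65.2 in mutant 3, a log2 ratio of -1.80. BNA1, a gene of NAD synthesis, had 3445 in control 3 and 1144 in mutant 3, a log2 ratio of -1.59 and stood out among them as a bright feature. The remaining protein-coding genes of the 20 lowest were YJL218W, ARR2, YOL014W, UBC12, ICY1 and PGK1, with log2 ratios from -2.22 to -1.48. The other 4 of the 20 were small nucleolar and ribosomal RNA genes. The plot of the 40 genes shows both signals of each.

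**Figure D2:**
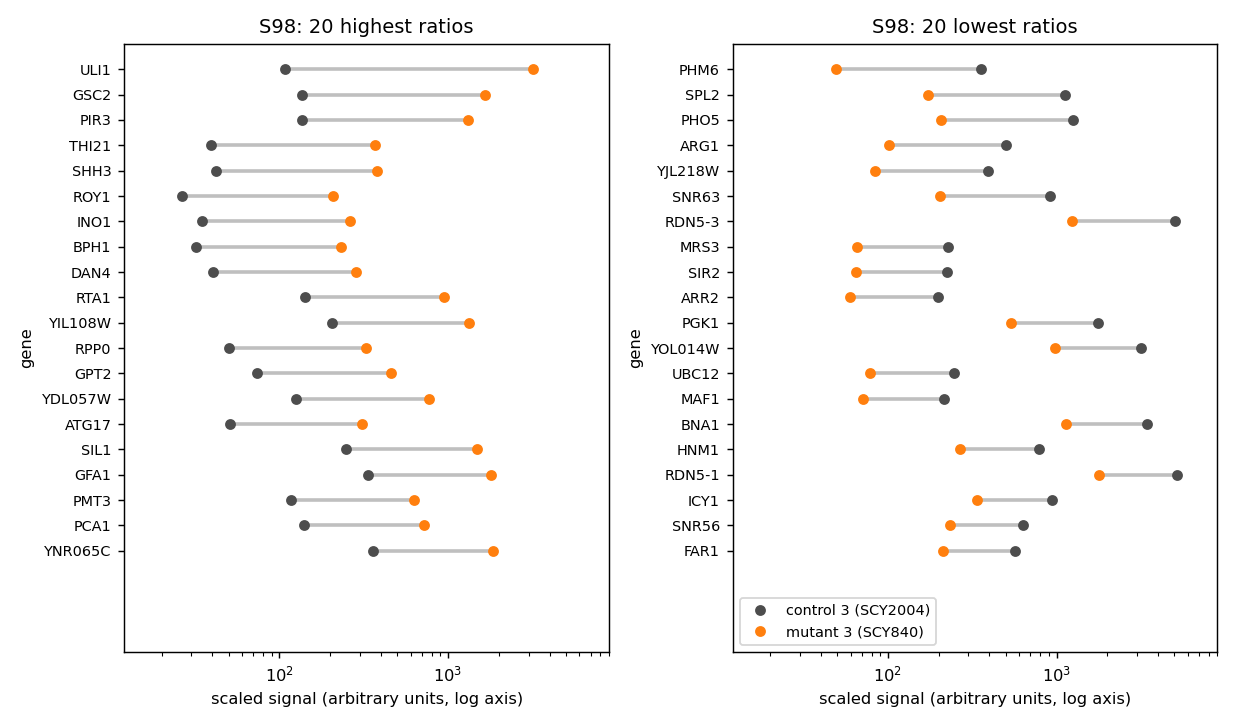
Scaled signal in arbitrary units (horizontal log axis) of the 20 genes with the highest (left) and the 20 with the lowest (right) ratio on S98, control 3 in grey and mutant 3 in orange. ULI1 goes from 108 to 3172, and PHM6 from 357 to 49.4; each gene has 1 array a strain, so no error bars are drawn.

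Of 23 ER protein folding genes measured, 8 were at least 2-fold higher in mutant 3 and none lower, around a median log2 ratio of 0.55. Beside ULI1 and SIL1 these were 6 further genes. JEM1, which encodes an ER J-domain partner of Kar2, had a scaled signal of 31.4 in control 3 and 147 in mutant 3, a log2 ratio of 2.23. ERO1, which encodes the oxidase that feeds disulfide bonds to the ER, had 123 in control 3 and 544 in mutant 3, a log2 ratio of 2.15. LHS1, which encodes an ER Hsp70 relative, had 164 in control 3 and 628 in mutant 3, a log2 ratio of 1.94. The protein disulfide isomerase relatives MPD1 and EUG1 and the J-domain gene SCJ1 completed the group, with log2 ratios of 1.48, 1.18 and 1.02. KAR2 itself, the main ER Hsp70, had 3123 in control 3 and 2283 in mutant 3, a log2 ratio of -0.45. PDI1, the main disulfide isomerase gene, had 2245 in control 3 and 3065 in mutant 3, a log2 ratio of 0.45. Both lay in the brightest group of probe sets, whose median log2 ratio was -0.22, and against that trend with signal their values were -0.24 and 0.66. HAC1 had 1513 in control 3 and 2186 in mutant 3, a log2 ratio of 0.53, and its 4 probe sets gave log2 ratios from 0.53 to 1.13. The sensor gene IRE1 had a log2 ratio of 0.22.

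Genes of ER-associated degradation, which returns misfolded proteins to the cytosol for the proteasome, showed the same side of the all-gene median. Of 20 measured, 6 were at least 2-fold higher and 0 lower, with a median log2 ratio of 0.52. DER1, a gene of the retrotranslocation channel, had 336 in control 3 and 1130.4 in mutant 3, a log2 ratio of 1.75, and its other probe set gave 1.79. USA1, which encodes the scaffold of the same complex, had 106 in control 3 and 294 in mutant 3, a log2 ratio of 1.47. The ubiquitin ligase gene HRD1 and its partner HRD3 had log2 ratios of 1.23 and 1.14, and the Der1 relative DFM1 had 1.21. MNS1, which encodes the mannosidase that trims N-glycans of ER proteins, had 1.34. The proteasome genes, which act downstream, had a median of 0.20 over 35 genes with 2 at least 2-fold higher, one of them RPN4, which encodes their transcription factor and had 262 in control 3 and 599 in mutant 3, a log2 ratio of 1.20.

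The GPI anchor genes, a pathway in which ARV1 is known to act, had a median log2 ratio of 0.54 over 24 genes, with 5 at least 2-fold higher and 0 lower. MCD4, which encodes the enzyme that adds the first ethanolamine phosphate, had a scaled signal of 557 in control 3 and 1817 in mutant 3, a log2 ratio of 1.71. SPT14, the catalytic gene of the first step of anchor assembly, had 111 in control 3 and 343 in mutant 3, a log2 ratio of 1.63. GWT1, which encodes the inositol acyltransferase, had 388 in control 3 and 915 in mutant 3, a log2 ratio of 1.24. CWH43 and GPI17, which act in lipid remodelling and in transfer of the anchor to proteins, had log2 ratios of 1.26 and 1.18. The 5 genes thus cover early, middle and late steps. At the other end GPI8, which encodes the catalytic subunit of the transamidase, had 399 in control 3 and 224 in mutant 3, a log2 ratio of -0.83. Protein O-mannosylation and Golgi mannosyltransferase genes had a median of 0.39 over 27 genes, and 4 were at least 2-fold higher: PMT3, MNN4, KTR1 and KTR2. KTR1, a Golgi mannosyltransferase gene, had 582 in control 3 and 1886 in mutant 3, a log2 ratio of 1.70. KTR2, its relative, had 375 in control 3 and 1195 in mutant 3, a log2 ratio of 1.67. MNN4, a regulator gene of mannosylphosphate transfer, had 2.06 from its brightest probe set but 0.76 as the mean of its 2 sets. N-glycosylation genes had a median of 0.29 over 27, and only SEC59, the dolichol kinase gene, was at least 2-fold higher, with 152 in control 3 and 374 in mutant 3, a log2 ratio of 1.30. ER-Golgi transport genes had a median of 0.26 over 35. The COPII coat gene SEC24 had 323 in control 3 and 1085 in mutant 3, a log2 ratio of 1.75, and its relative SFB3 had 1.10. The coat scaffold gene SEC16 had 1.35 from its brightest probe set, but its 5 sets ran from 0.43 to 1.35 with a mean of 0.77.

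Cell wall genes had the largest number of members at least 2-fold higher, 12 of 45, with 0 lower and a median log2 ratio of 0.59. Several smaller groups had a larger share, among them ER protein folding genes with 8 of 23 and seripauperins with 6 of 10. GSC2 was measured by 7 probe sets, and their log2 ratios ran from 2.01 to 4.80. FKS1, which encodes the glucan synthase subunit used in growing cells, had 1871 in control 3 and 2455 in mutant 3, a log2 ratio of 0.39. YPS3, which encodes a GPI-anchored aspartic protease, had 302 in control 3 and 1388 in mutant 3, a log2 ratio of 2.20, and its relatives YPS1 and YPS6 had log2 ratios of 1.17 and 1.54. Chitin genes were higher at several steps. CHS3, the main chitin synthase gene, had 455 in control 3 and 1256 in mutant 3, a log2 ratio of 1.46. CHS6, which encodes a protein of the exomer that carries Chs3 to the surface, had 126 in control 3 and 395 in mutant 3, a log2 ratio of 1.65. CRH1, which encodes the enzyme that links chitin to glucan, had 725 in control 3 and 2208 in mutant 3, a log2 ratio of 1.61. With GFA1 these span precursor, polymer and cross-link. Other wall protein genes at least 2-fold higher were PST1 (1.29), SPI1 (1.44), PIR1 (1.12) and TIR2 (1.04). Not all wall proteins lay on this side, and 10 of the list had log2 ratios below 0. HSP150, a relative of PIR3, had 2876 in control 3 and 1443 in mutant 3, a log2 ratio of -0.995. CWP2, the gene of a major wall mannoprotein, had 2489 in control 3 and 1367 in mutant 3, a log2 ratio of -0.86, and GAS1, which encodes a glucan-remodelling enzyme, had 2778 in control 3 and 1950.3 in mutant 3, a log2 ratio of -0.51.

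Genes of cell integrity signalling had a median of 0.56 over 22 genes, with 3 at least 2-fold higher and 0 lower. PTP2, which encodes a phosphatase of the Slt2 kinase, had 113 in control 3 and 340.1 in mutant 3, a log2 ratio of 1.59, and its 3 probe sets ran from 1.47 to 2.64. ROM1, a Rho1 exchange factor gene, had 89.2 in control 3 and 238 in mutant 3, a log2 ratio of 1.42. KDX1, which encodes a relative of Slt2, had 45.2 in control 3 and 119 in mutant 3, a log2 ratio of 1.39. The kinase gene SLT2 and the transcription factor gene RLM1 had smaller log2 ratios of 0.83 and 0.99. The flocculin group was small and dim. FLO1, a flocculin gene, had 37.5 in control 3 and 143.3 in mutant 3, a log2 ratio of 1.93, and FLO11, an adhesin gene, had 21.8 in control 3 and 56.3 in mutant 3, a log2 ratio of 1.37.

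Among lipid genes the sides differed by pathway. Ergosterol synthesis genes had a median log2 ratio of -0.29 over 26 genes, and none reached 2-fold either way. ERG28, which encodes a scaffold of the sterol demethylation complex, had 2259.5 in control 3 and 1194 in mutant 3, a log2 ratio of -0.92. ERG4, which encodes the last reductase of the pathway, had 1671 in control 3 and 955 in mutant 3, a log2 ratio of -0.81. HMG2, the less used reductase gene of the mevalonate pathway, had 276 in control 3 and 499 in mutant 3, a log2 ratio of 0.85, while its relative HMG1 had a log2 ratio of 0.28. Genes of sterol esters, neutral lipids and sterol transport had a median of 0.35 over 24, with 4 at least 2-fold higher. ARE1, the sterol acyltransferase gene of low-oxygen cells, had 462 in control 3 and 1054 in mutant 3, a log2 ratio of 1.19, while ARE2, the acyltransferase gene most used in air, had 88.8 in control 3 and 123 in mutant 3, a log2 ratio of 0.47. PRY2, which encodes a secreted sterol-binding protein, had 879.9 in control 3 and 2865 in mutant 3, a log2 ratio of 1.70, and its relative PRY1 had 223 in control 3 and 479 in mutant 3, a log2 ratio of 1.10. NCR1, which encodes the vacuolar counterpart of the human Niemann-Pick sterol protein, had 231 in control 3 and 651 in mutant 3, a log2 ratio of 1.496, with 4 probe sets from 0.21 to 1.81. Sterol uptake and hypoxic genes had a median of 0.47 over 15. AUS1, a sterol importer gene, had 2.21 from its brightest set and 1.06 as the mean of 3 sets. UPC2, which encodes the sterol-sensing transcription factor, had 31.7 in control 3 and 65.5 in mutant 3, a log2 ratio of 1.04, and HEM13, a haem synthesis gene raised by low oxygen, had 160.2 in control 3 and 349 in mutant 3, a log2 ratio of 1.13. CYC7, the hypoxic cytochrome c gene, lay on the other side with 403 in control 3 and 172 in mutant 3, a log2 ratio of -1.23.

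Phospholipid synthesis genes split. The median of 33 genes was 0.28, with 5 at least 2-fold higher and 2 lower. INO1 and GPT2 were the highest. PLB1 and PLB3, which encode phospholipases B, had log2 ratios of 1.42 and 1.55, but the third gene of the family, PLB2, had 175 in control 3 and 50.5 in mutant 3, a log2 ratio of -1.79. DGK1, the diacylglycerol kinase gene, had 651 in control 3 and 1325 in mutant 3, a log2 ratio of 1.03. The lower genes were PLB2 and the choline transporter gene HNM1. CHO1, the phosphatidylserine synthase gene, which shares the inositol-responsive element with INO1, had 1404 in control 3 and 749.6 in mutant 3, a log2 ratio of -0.91 and so differed in sign from INO1. ITR1, the inositol transporter gene, had a log2 ratio of -0.30, and the regulator genes INO2, INO4 and OPI1 had -0.17, 0.32 and -0.24. Sphingolipid genes had a median of -0.07 over 31. ORM2, which encodes a regulator of serine palmitoyltransferase, had 1351 in control 3 and 2795 in mutant 3, a log2 ratio of 1.05, while ORM1, its relative, had a log2 ratio of -0.60. SUR1, which encodes a mannosyltransferase of complex sphingolipids, had 92.9 in control 3 and 215 in mutant 3, a log2 ratio of 1.21, and AUR1, the inositolphosphorylceramide synthase gene, had 1909.9 in control 3 and 1052 in mutant 3, a log2 ratio of -0.86.

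The phosphate regulon had the lowest median of the 46 lists, -0.49 over 22 genes, with 4 at least 2-fold lower and 2 higher. With the trend with signal subtracted its median was -0.40, and mitochondrial ribosomal protein genes (-0.53) and ribosome biogenesis genes (-0.44) had lower ones. After PHM6, SPL2 and PHO5 came PHO89, the sodium-phosphate transporter gene, with 459 in control 3 and 218 in mutant 3, a log2 ratio of -1.08. VTC4, the polyphosphate synthase gene, had 2017 in control 3 and 1010.1 in mutant 3, a log2 ratio of -0.997 from its brightest probe set. Its other set gave -0.27. PHO84, the high-affinity phosphate transporter gene, had 3908 in control 3 and 2561 in mutant 3, a log2 ratio of -0.61. The PHO84 signals were in the brightest group of probe sets, where the log2 ratios had an SD of 0.47 against 0.64 to 0.86 in the other groups. A probe set shared by PHO11 and PHO12, the close relatives of PHO5, had 2583 in control 3 and 175 in mutant 3, a log2 ratio of -3.88. GDE1, which encodes a phosphodiesterase that releases choline from glycerophosphocholine, went the other way with 328 in control 3 and 975 in mutant 3, a log2 ratio of 1.57.

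Genes of ribosome production lay below the all-gene median. The 84 ribosome biogenesis genes had a median of -0.29, with 65 below 0 but only 3 at least 2-fold lower. The lowest were MAK5 (-1.16), NOP8 (-1.14) and NOP15 (-1.09), all of large subunit assembly. RNA polymerase I and III genes had a median of -0.33 over 30, and mitochondrial ribosomal protein genes had -0.40 over 71, with 62 below 0 and 5 at least 2-fold lower. MRPL49 and RSM26, of the large and small mitochondrial subunits, had log2 ratios of -1.16 and -1.16. The 73 cytosolic ribosomal protein genes had a median of -0.25, but they were also very bright, with a median signal of 2934, and their median was 0.02 above that of all genes under quantile normalisation. Genes of amino acid synthesis had a median of -0.26 over 41, with 3 at least 2-fold lower: ARG1, ARG3 (-1.91) and LEU9 (-1.09). LEU1, the isopropylmalate isomerase gene, had 509 in control 3 and 1225 in mutant 3, a log2 ratio of 1.27.

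Among carbon and stress genes the groups differed. The gluconeogenesis and glyoxylate group had a median of 0.89 over 18 genes, with 7 at least 2-fold higher and 1 lower. ADR1, which encodes a transcription factor of genes for nonfermentable carbon, had 16.1 in control 3 and 87.7 in mutant 3, a log2 ratio of 2.44. IDP2, the cytosolic isocitrate dehydrogenase gene, had 27.3 in control 3 and 119 in mutant 3, a log2 ratio of 2.12. MLS1 and ICL1, the 2 enzymes proper to the glyoxylate cycle, had log2 ratios of 1.54 and 1.27. The median signal of this group was 81.9, so most of its members were dim on both arrays. Glycolysis and fermentation genes had a median of -0.13 over 27, with 2 at least 2-fold higher and 3 lower. The lower ones were PGK1 (-1.72), the phosphoglycerate kinase gene, ENO1 (-1.24), an enolase gene, and TDH3, which was listed at 0 in mutant 3. PYK2, the pyruvate kinase gene of slow glycolytic flux, had 46.3 in control 3 and 164 in mutant 3, a log2 ratio of 1.83, and PDC5, a minor pyruvate decarboxylase gene, had 179 in control 3 and 494 in mutant 3, a log2 ratio of 1.46. General stress, trehalose and glycogen genes had a median of 0.38 over 34, with 4 at least 2-fold higher. Cytosolic heat shock genes had a median of 0.10, just below that of all genes, but above it by 0.20 under quantile normalisation and by 0.16 with the signal trend subtracted. Of 28 measured, 6 were at least 2-fold higher, or 5 of 27 without SSA1, which was listed at 0 in control 3. HSP12, which encodes a membrane-stabilising stress protein, had 882 in control 3 and 2489 in mutant 3, a log2 ratio of 1.497. SSE2, an Hsp110 gene, had 351 in control 3 and 1137 in mutant 3, a log2 ratio of 1.70, and HSP104, the disaggregase gene, had a log2 ratio of 1.16.

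Further groups also had a median above that of all genes, and some of their highest members are given. In sulfate assimilation and methionine synthesis the median was 0.50 over 29 genes, and SUL1, a sulfate permease gene, had 42.7 in control 3 and 138 in mutant 3, a log2 ratio of 1.69. In allantoin and nitrogen catabolite genes it was 0.44 over 26. GDH2, which encodes the glutamate dehydrogenase that degrades glutamate, had 29.4 in control 3 and 143.7 in mutant 3, a log2 ratio of 2.29. DAL4, the allantoin permease gene, had 193 in control 3 and 655 in mutant 3, a log2 ratio of 1.76. In vacuolar and autophagy genes the median was 0.43 over 32, and PRB1, which encodes the vacuolar proteinase B, had 578 in control 3 and 2289 in mutant 3, a log2 ratio of 1.99. AMS1, a vacuolar mannosidase gene, had 91.4 in control 3 and 289 in mutant 3, a log2 ratio of 1.66. In thiamine metabolism the median was 0.38 over 16, and THI4, a gene of thiazole synthesis, had 29.3 in control 3 and 122 in mutant 3, a log2 ratio of 2.05. Pleiotropic drug resistance genes had a median of 0.32 over 20, and RTA1, ICT1 (1.91) and PDR15 (1.78) led them. The seripauperins, a subtelomeric family of wall mannoproteins, had the highest median of the 46 lists, 1.12 over 10 genes, with 6 at least 2-fold higher and none below 0. PAU15 had 22.9 in control 3 and 92.5 in mutant 3, a log2 ratio of 2.01, and PAU13 had 121 in control 3 and 304 in mutant 3, a log2 ratio of 1.33. Their probes are near-identical between members, so single seripauperins are uncertain.

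Mating genes bear on the MATa label of both strains. The 7 markers of a cells summed to a scaled signal of 6415 in control 3 and 4707 in mutant 3, and the a-factor gene MFA1 among them had 3063 in control 3 and 2689 in mutant 3. The 4 markers of α cells summed to 168 in control 3 and 172 in mutant 3, with single signals from 19.4 to 76.5. Probes of different genes are not on a common scale and no detection call was used, so the sums can be read between the arrays but not between the lists. The wider a-cell and pheromone group had a median of 0.12, which was that of all genes. The group median fell below that of all genes under quantile normalisation, with the signal trend subtracted and under both other signal filters. Of its 31 genes, 6 were at least 2-fold lower and 2 at least 2-fold higher, PRM2 (1.63) being 1 of the higher ones. The lower ones included MF(ALPHA)1 (-1.14), which is 1 of the 4 α-cell markers. STE2, which encodes the α-factor receptor, had 559.5 in control 3 and 239 in mutant 3, a log2 ratio of -1.23, and AGA2, an agglutinin gene, had 313 in control 3 and 151 in mutant 3, a log2 ratio of -1.05. Of 6 meiotic or diploid markers 3 passed the signal filter, and NDT80 had the highest signals, 269 in control 3 and 175 in mutant 3. HOP1, a meiotic chromosome axis gene, had 14.2 in control 3 and 131 in mutant 3, a log2 ratio of 3.21 and had the largest ratio of the meiotic list. The plot of the lists shows the medians beside the spread of their members.

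**Figure D3:**
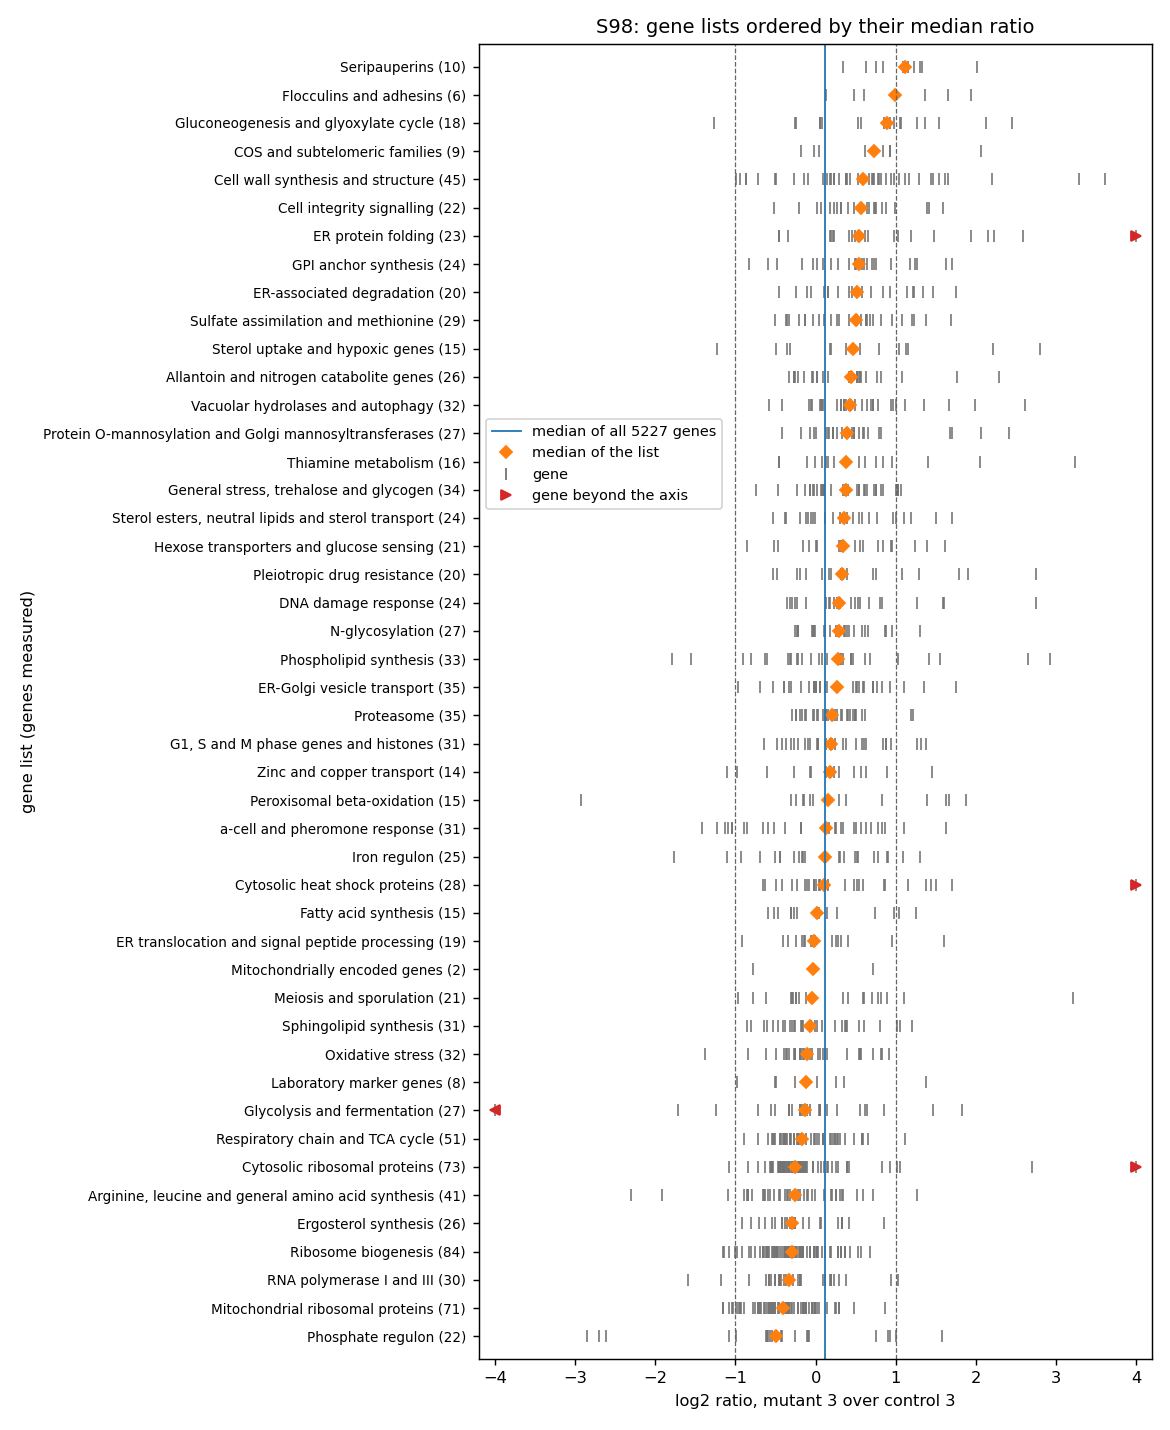
Log2 ratio of mutant 3 to control 3 (horizontal axis) for the members of 46 gene lists (vertical axis, with the number measured), ordered by list median. Grey ticks are genes, orange diamonds list medians, the blue line the median of all 5227 genes (0.12), dashed lines 2-fold, and red arrows the 4 genes beyond the axis; seripauperins stand highest (1.12) and the phosphate regulon lowest (-0.49).

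Some S98 probe sets could not be matched by gene to Ye6100. Of the 6967 probe sets compared, 1355 had no Ye6100 partner, and their median log2 ratio was -0.17 against 0.13 for the 5612 with one. Among those without a partner 91 were at least 2-fold higher (6.72%) and 104 at least 2-fold lower (7.68%), against 593 (10.6%) and 108 (1.92%) among the rest. Lower features were thus a larger share of the probe sets without a partner, and small RNA genes made up part of them. A partner was sought through the annotated gene alone. The 1005 sets with no annotated gene, 79 of them higher and 75 lower, therefore counted as without one. Whether Ye6100 has probes for them was not known here.

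Small nucleolar RNAs, which guide chemical modification and cleavage of ribosomal RNA, lay mostly below 0. Of 49 genes measured, 41 had a log2 ratio below 0, 12 were at least 2-fold lower and none at least 2-fold higher, with a median of -0.62. SNR63 had a scaled signal of 916 in control 3 and 204 in mutant 3, a log2 ratio of -2.17. SNR128 had 995 in control 3 and 387 in mutant 3, a log2 ratio of -1.36, SNR69 had 586 in control 3 and 223 in mutant 3, a log2 ratio of -1.39 and SNR56 had 633 in control 3 and 232 in mutant 3, a log2 ratio of -1.45. Bright members behaved in part alike, with SNR67 at 1795 in control 3 and 783 in mutant 3 and SNR72 at 1535 in control 3 and 745 in mutant 3, while SNR4 had 1715 in control 3 and 2198 in mutant 3, a log2 ratio of 0.36 and SNR51 had 296.9 in control 3 and 479.6 in mutant 3, a log2 ratio of 0.69. Of the 34 C/D genes, whose RNAs guide methylation, 11 were at least 2-fold lower, against 1 of the 15 H/ACA genes, whose RNAs guide pseudouridylation, but the medians of both classes were close, -0.61 and -0.62. The 2 classes were drawn up after the values were seen, and their difference was not tested. TLC1, the telomerase RNA, had 252 in control 3 and 130.3 in mutant 3, a log2 ratio of -0.95, and RPR1, the RNase P RNA, had 331 in control 3 and 203 in mutant 3, a log2 ratio of -0.71. These RNAs mostly lack poly(A) tails, and both samples were oligo(dT)-selected. How much non-polyadenylated RNA each preparation kept was not tested.

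Of the other RNAs without poly(A) tails, tRNAs also lay mostly below 0 and the ribosomal RNAs were mixed. The 89 tRNA genes measured had a median of -0.36, with 79 below 0, 2 at least 2-fold higher and 2 lower. The 5S ribosomal RNA gene RDN5-3 had a scaled signal of 5014 in control 3 and 1241 in mutant 3, a log2 ratio of -2.01, and RDN5-1 had 5191 in control 3 and 1787 in mutant 3, a log2 ratio of -1.54 from its brighter set. The 5 control spots for 18S ribosomal RNA had a median log2 ratio of 0.74, from 0.19 to 1.17, and the 5 for 25S ribosomal RNA had -0.25, from -0.51 to 0.48. The 4 small nuclear RNAs of the spliceosome had a median of -0.41, from -0.70 for SNR7-L to 0.58 for SNR19. Protein-coding genes with no Ye6100 gene, 140 in all, had a median of -0.09, with 7 at least 2-fold higher and 5 lower. Some single genes had no Ye6100 partner. HUG1, a small protein gene of the DNA damage response, had 73.3 in control 3 and 221 in mutant 3, a log2 ratio of 1.59. MOB2, a kinase activator gene, had 89.2 in control 3 and 296 in mutant 3, a log2 ratio of 1.73. NCW1, a wall protein gene, had 2 probe sets that both gave lower values but differed in size, with log2 ratios of -0.87 and -3.25.

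**Figure D4:**
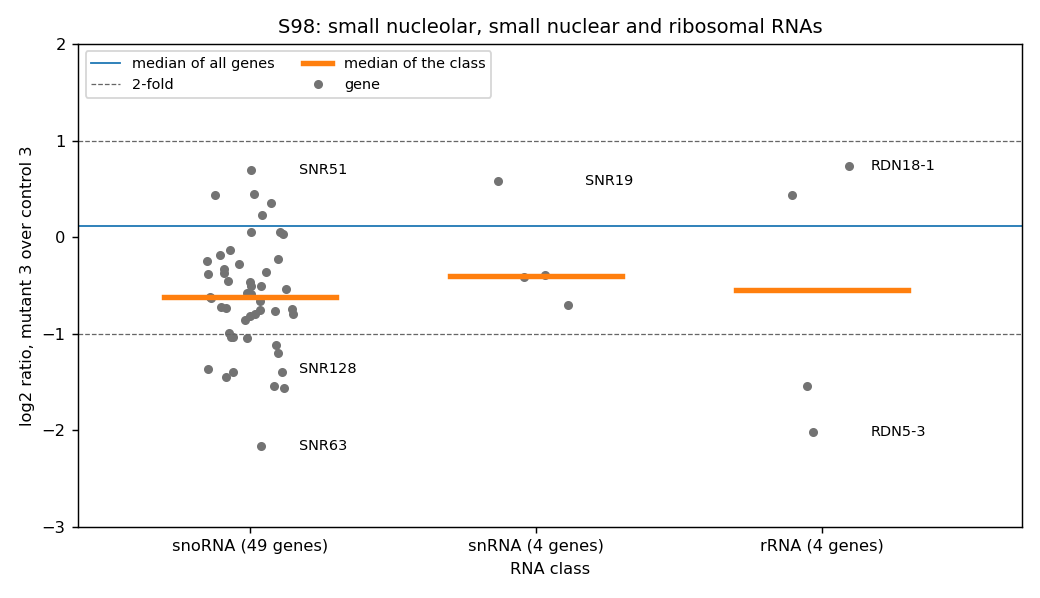
Log2 ratio of mutant 3 to control 3 (vertical axis) for 49 small nucleolar, 4 small nuclear and 4 ribosomal RNA genes on S98 (grey points, spread sideways at random), with the median of each class in orange, the median of all genes in blue and 2-fold dashed. The small nucleolar RNAs run from -2.17 (SNR63) to 0.69 (SNR51).

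Some probe sets match several genes and so report a family. The 273 such sets had a median log2 ratio of -0.07, with 33 at least 2-fold higher and 13 lower. The set for the metallothionein copies CUP1-1 and CUP1-2 had a scaled signal of 861 in control 3 and 105 in mutant 3, a log2 ratio of -3.03. The set for DDI2 and DDI3, which encode cyanamide hydratases, had 25.2 in control 3 and 230.2 in mutant 3, a log2 ratio of 3.19. The set for the flocculin genes FLO5 and FLO9 had 205 in control 3 and 1396 in mutant 3, a log2 ratio of 2.76, and that for the vitamin B6 genes SNZ2 and SNZ3 had 277 in control 3 and 854 in mutant 3, a log2 ratio of 1.63. The CUP1 value was the opposite in sign of CRS5, the other metallothionein gene, which had 172 in control 3 and 469 in mutant 3, a log2 ratio of 1.45. Sets for groups of seripauperins were higher, the largest with 179 in control 3 and 694 in mutant 3, a log2 ratio of 1.96. Retrotransposon sets differed among the families counted. Of 14 sets for Ty2 elements alone 6 were at least 2-fold higher and 1 lower. The higher ones included sets with log2 ratios of 2.13, 2.03 and 1.57. None of 24 sets for Ty3 and none of 16 for Ty4 reached 2-fold. No such count was made for Ty1. Several Ty sets outside these counts, each shared by several elements, were at least 2-fold lower. The lowest had 3263 in control 3 and 735 in mutant 3, a log2 ratio of -2.15. Others had log2 ratios of -1.51, -1.29 and -1.27. Of 1005 probe sets with no gene in the annotation, 79 were at least 2-fold higher and 75 lower. The 2 highest among those with a mean signal over 112.9 were 3296_at, with 11.7 in control 3 and 319.8 in mutant 3, a log2 ratio of 4.77, and 2858_at, with 34.3 in control 3 and 836 in mutant 3, a log2 ratio of 4.61. The 2 lowest among them were 3740_f_at, with 3734 in control 3 and 570.4 in mutant 3, a log2 ratio of -2.71, and 11244_s_at, with 455 in control 3 and 79.2 in mutant 3, a log2 ratio of -2.52.

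By position, protein-coding genes close to chromosome ends had higher ratios. Of 51 genes among the 5 nearest an end in gene order, 13 were at least 2-fold higher and 2 lower, and the median log2 ratio was 0.50. For the 118 genes ranked 6 to 10 from an end the median was 0.14, and for the 4064 genes ranked 41 or more it was 0.12. Among the 51 were 6 seripauperin and 5 COS genes, ERO1 and FLO1. YOL164W-A, of unknown function, had the highest ratio of them, 3.35, from a control signal of 6.51. The COS family, subtelomeric genes of membrane proteins, had several bright members, among them COS4 with 1567 in control 3 and 2799.9 in mutant 3, a log2 ratio of 0.84. COS10 was dimmer, with 150.3 in control 3 and 627 in mutant 3, a log2 ratio of 2.06 from its brightest set. Its 3 sets ran from 1.03 to 2.06 with a mean of 1.52. Over whole chromosomes the median ran only from 0.07 on VIII and XIV to 0.33 on I.

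The one estimate of error within this pair of arrays came from genes with several probe sets, which share the RNA and the chips. For 247 such genes the pooled SD of the log2 ratio between sets was 0.56, being 0.64 for the dimmer and 0.46 for the brighter genes. For 59 of them the sets spanned more than 1 log2 unit. Of 32 genes at least 2-fold by their brightest set, 15 were also at least 2-fold the same way by the mean of their sets, and 8 had a set of the opposite sign. GSC2 and PTP2 were among those whose sets all lay beyond 2-fold. The checkpoint kinase gene MEC1 was not, with 2.75 from its brightest set and -0.17 from its lowest. Ratios near 2-fold of a gene with 1 probe set should be read with that spread in mind.

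A few probe sets for very abundant mRNAs gave readings that their own family did not share. RPL22A, a ribosomal protein gene, was listed at 0 in control 3 and at 1586 in mutant 3. TDH3, the main glyceraldehyde phosphate dehydrogenase gene, had 122 in control 3 and was listed at 0 in mutant 3. SSA1, a cytosolic Hsp70 gene, was listed at 0 in control 3 and at 97.2 in mutant 3. Their ratios are not described, but the 3 genes are among the counts over all genes and lists. Without probe sets listed at 0, 506 genes were at least 2-fold higher and 105 lower. RPP0 had 50.3 in control 3 and 328 in mutant 3, a log2 ratio of 2.70, the set shared by RPL2A and RPL2B had 21 in control 3 and 846 in mutant 3, a log2 ratio of 5.33, that shared by RPL26A and RPL26B had 16.5 in control 3 and 487 in mutant 3, a log2 ratio of 4.88, and that shared by RPS23A and RPS23B had 1390.1 in control 3 and 89.4 in mutant 3, a log2 ratio of -3.96. On Ye6100, where probes and scale differ from those of S98, the RPP0 signal was 4678 in the control and 4845 in SCY840, and that of TDH3 was 4622 in the control. PGK1, whose S98 signals were 1765 in control 3 and 537 in mutant 3, had 12262 in the control and 10112 in SCY840 on Ye6100. Most other ribosomal protein genes on S98 had small ratios, as RPL5 (-0.38) and RPS3 (0.14) did.

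The same isolate, SCY840, was also hybridised to Ye6100, against another control strain, SCY328, and isolate SCY820 against that control as well. No sample is shared with the S98 pair, while the SCY820 and SCY840 comparisons on Ye6100 share their control. Ratios could be set side by side for 4288 genes measured on both formats. The Ye6100 columns were used as deposited, without the scaling given to S98. Over these genes the median Ye6100 log2 ratio was -0.04 for SCY840 and 0.24 for SCY820, so 0 is not the same reference point in each comparison. On Ye6100, 534 of these were at least 2-fold higher (12.5%) and 720 lower (16.8%) in SCY840, and 658 were higher (15.3%) and 175 lower (4.08%) in SCY820. Of the 20 genes highest on S98, 18 were measured on Ye6100. All 18 had ratios above 0 in SCY840, and 11 were at least 2-fold higher. In SCY820, 17 were above 0 and 16 at least 2-fold higher. ULI1 had Ye6100 log2 ratios of 6.67 for SCY840 and 6.25 for SCY820, and SIL1 had 2.36 for SCY840 and 2.40 for SCY820. RTA1 had 3.15 for SCY840 and 2.78 for SCY820, and YNR065C had 3.50 for SCY840 and 3.24 for SCY820. All 4 genes were over 2 log2 units higher in every comparison, and ULI1, YNR065C and, by a small margin in SCY820, RTA1 had larger ratios on Ye6100 than on S98. Of the 20 lowest 14 were measured there, with 12 below 0 in SCY840 and 7 at least 2-fold lower, and 13 and 5 in SCY820. PHO5 had -5.34 for SCY840 and -3.15 for SCY820, and SPL2 had -4.87 for SCY840 and -3.71 for SCY820.

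Over the wider set the S98 values lay closer to those of the other isolate. Across the 4288 genes the S98 ratios had a Pearson correlation of 0.12 and a Spearman correlation of 0.06 with SCY840 on Ye6100, and 0.59 and 0.59 with SCY820. Genes of 1 array are not independent replicates, and the points share their arrays and the gene's own brightness, so these are descriptions. Of the 428 genes at least 2-fold higher on S98, 58.4% had the same sign and 24.3% were also at least 2-fold higher in SCY840 on Ye6100, and 15.7% were at least 2-fold lower there. In SCY820, 96.0% had the same sign, 55.1% were at least 2-fold higher and none was at least 2-fold lower. Over all shared genes, 48.5% had a ratio above 0 in SCY840 and 63.9% in SCY820. Of the 428, 89 were at least 2-fold higher in all 3 comparisons, 147 on S98 and in SCY820 alone, 15 on S98 and in SCY840 alone, and 177 on S98 alone. For the 64 genes lower on S98 the sign was shared by 71.9% in SCY840 and 89.1% in SCY820, against 51.4% and 36.0% over all shared genes. Of the 64, 35.9% were also at least 2-fold lower in SCY840 and 31.2% in SCY820. They divide into 12 at least 2-fold lower in all 3 comparisons, 8 on S98 and in SCY820 alone, 11 on S98 and in SCY840 alone, and 33 on S98 alone. The S98 mutant carries the label SCY840, so over all genes, and by sign, its ratios lay closer to those of the isolate it is not labelled as, while 23 of its 64 lower genes were 2-fold lower in SCY840 and 20 in SCY820. Isolate, control strain, culture and array format cannot be told apart here.

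Of the lists with over 10 shared genes, that of stress and carbohydrate storage differed most between the formats. The 28 shared genes of general stress, trehalose and glycogen had a median log2 ratio of 0.53 on S98 and of -1.66 for SCY840 and 1.14 for SCY820 on Ye6100. For cytosolic heat shock genes the 3 medians were 0.10, -1.28 and 0.87, in the same order, over 28 genes. For sterol uptake and hypoxic genes they were 0.47, -0.76 and 0.90, and for cell wall genes 0.71, -0.11 and 0.75. ER protein folding genes, by contrast, had medians above 0 in every comparison, 0.58, 0.91 and 0.76, and so had GPI anchor genes, with 0.58, 0.41 and 0.41. PIR3 was much higher on S98 than in SCY840 on Ye6100, where its log2 ratios were 0.68 for SCY840 and 3.20 for SCY820. INO1 had Ye6100 ratios of 1.23 for SCY840 and 2.66 for SCY820, and GFA1 had 0.96 for SCY840 and 2.46 for SCY820. KAR2 had 0.90 for SCY840 and 0.66 for SCY820, so that its S98 value of -0.45 was the only 1 of the 3 below 0. On Ye6100 the 5′ to 3′ signal ratio of ACT1 was 0.351 in SCY840, 0.764 in SCY820 and 0.781 in the control. That of SPT15 was 0.370, 0.603 and 0.563 in the same order, and that of MED17 was 0.201, 0.399 and 0.691. SCY840 was thus the lowest for all 3 genes, and the part of RNA integrity in the comparison was not tested.

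**Figure D5:**
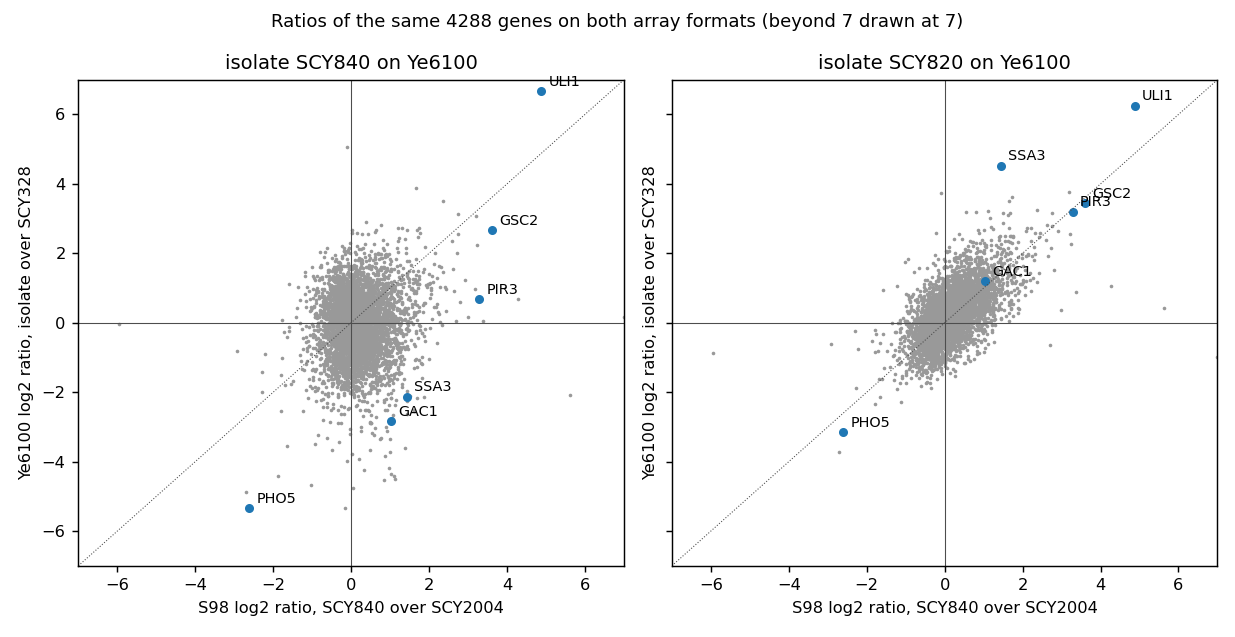
Log2 ratios of 4288 genes on Ye6100 (vertical axes, isolate over SCY328) against S98 (horizontal axes, SCY840 over SCY2004), with SCY840 on Ye6100 at left and SCY820 at right; points beyond 7 are drawn at 7. Points follow the dotted line of equal ratios more closely at right (Pearson correlation 0.59) than at left (0.12), and blue points are named genes, with ULI1 high and PHO5 low in both panels.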

How the data were processed

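Gene expression was measured on Affymetrix arrays. The deposited S98 values are linear intensities of probe sets. MAS5 is the software that the submitters' processing notes name, without version, scaling target or detection calls. The columns had different trimmed means and no values below 0, and 15 probe sets in control 3 and 17 in mutant 3 were at 0. Each S98 column was scaled to a common 2% trimmed mean, raised to a floor at the fifth percentile, and compared as log2 ratios with Python 3.11.15 and pandas 2.3.3. The Ye6100 columns were not rescaled, except in the alternative with median centring. Probe sets with a mean signal over the 25th percentile were kept, and the 60 control spots were left out. GEO's platform annotation gave 6504 probe sets 1 gene, 328 several and 2503 none, with symbols updated through the RefSeq table of assembly R64, which also gave RNA classes and gene order. Named genes were ARV1, the 20 highest and 20 lowest whose signal was over the median and not 0, up to 4 per list with the largest ratios, 10 chosen genes, and up to 6 features each way with no Ye6100 partner; other names were chosen after their values were seen. Members and lists were chosen with earlier results of these data known. The number of arrays limits precision. The scaling, ratio and signal-trend steps were tested on simulated data, and the other steps were not. Alternatives in scaling, floor, filter, probe set choice and isolate were tried.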

Additional observations from a re-analysis of the deposited data

Results flagged for a closer look

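Of the genes named, 12 had a log2 ratio of at least 2-fold on S98 and at least 2-fold the opposite way for the same isolate, SCY840, on Ye6100. The difference was not tested, since each side of each comparison is 1 sample. Of the 4288 shared genes, 73 were opposite in this way. Among the 428 genes higher on S98, 15.7% were at least 2-fold lower in SCY840 on Ye6100, against 16.8% of all shared genes. Among the 64 lower on S98, 9.38% were at least 2-fold higher there, against 12.5% of all shared genes. Opposite values were thus no more frequent than over all shared genes. Glycogen and stress genes had the widest gaps. GAC1, which encodes a regulator of glycogen synthase phosphatase, had 1.03 on S98 and -2.84 for SCY840 on Ye6100, with 1.19 for SCY820 there. GSY2, the main glycogen synthase gene, had 1.03, -2.18 and 1.48 in the same order. The GAC1 signals were dim, with 21.8 in control 3 and 44.6 in mutant 3 on S98 and 5.7 in SCY840 on Ye6100, so its gap rests on weak readings. The Hsp110 gene SSE2 had 1.70, -2.16 and 2.5. The Hsp70 gene SSA3 had 1.44 on S98 and 4.52 for SCY820, but its Ye6100 signals were only 10.5 in the control and 1.4 in SCY840, so its direction in SCY840 rests on dim values. The pyruvate kinase gene PYK2 had 1.83, -1.18 and 1.76, and the vacuolar proteinase gene PRB1 had 1.99, -1.04 and 1.12. CAR2, of arginine breakdown, had 1.07, -1.95 and 1.85, and MET2, of methionine synthesis, had 1.2, -1.27 and 1.27. PRY1 had 1.10, -1.59 and 0.95, and CWH43 had 1.26, -1.02 and 0.66. In these genes SCY820 on Ye6100 had the sign of S98. LEU1 had 1.27, -1.45 and -0.56, and was the only 1 of the 12 where SCY820 had the sign of SCY840. RPA12, an RNA polymerase I subunit gene, lay the other way round with -1.18, 1.34 and -1.02.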

How the results depend on the processing

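No paired analysis was possible because each side has 1 sample, and for the same reason no replicate could be left out. Centring on the column medians gave 409 probe sets higher and 455 lower, 157 lower among those without a single gene, 286 genes higher and 256 lower, and 82 listed genes lower. Quantile normalisation gave 340 probe sets, 183 genes and 60 listed genes lower. Without a signal filter 1213 probe sets were higher and 637 lower, of them 439 and 396 without a single gene. With the filter at the median signal these were 406 and 113, and 59 and 38, and genes were 323 and 68. Without cross-hybridising sets 63 and 50 without a single gene were higher and lower. Subtracting the trend with signal, an alternative added after seeing the data, gave 162 genes lower. For genes higher on S98, the share of the same sign in SCY840 on Ye6100 was 70.26% with median centring, 65.25% with the median filter and 64.69% with the trend subtracted, and 96.03% in SCY820; the share also 2-fold was 36.64%, 31.78%, 30.69% and 55.14%. For lower genes the same sign was shared by 54.44% with median centring and 89.06% in SCY820. The list medians that crossed that of all genes did so, under quantile normalisation, for heat shock (0.1951), cytosolic ribosomal (0.01513), ER translocation (0.02716), cell cycle (-0.01546), peroxisomal (-0.06655), zinc and copper (-0.0502) and a-cell genes (-0.04258). With the trend subtracted they did so for heat shock (0.1577), ER translocation (0.05499), cell cycle (-0.01955), peroxisomal (-0.05254), zinc and copper (-0.06124) and a-cell genes (-0.02113). The a-cell list did so without a filter (-0.001762) and with the median filter (-0.2675), and the iron list without cross-hybridising sets (-0.009263). The cause was not tested. Of the 40 highest and lowest genes, of which 38 had a value without cross-hybridising sets (not RDN5-1 and RDN5-3), none that had a value changed sign under these alternatives, and only BPH1 moved by more than the spread between probe sets. Leaving out probe sets listed at 0, also added after seeing the data, moved no count or list median by that much, nor did another floor or none. No detection call was used, so dim signals cannot be told from background.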
